A study of Dreissena polymorpha with 10 samples.

Results

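The transcripts described here are those of the zebra mussel (Dreissena polymorpha, a freshwater bivalve) with probes that were bright on average. Their signal varied by less than a doubling over the arrays of February, June and September. They were chosen from the measured values. An accession was kept when its brightest probe was well above background on all 10 arrays, had a mean relative log2 signal of at least 0, and had its highest and lowest arrays less than 1 apart. The relative log2 signal is the log2 processed signal minus the 75th percentile, on the same array, of the probes detected on all arrays, so 0 is that percentile and a difference of 1 is a doubling. Of 3541 accessions or names on the array, 1163 were detected on all 10 arrays, 330 of those had a mean of at least 0, and 168 met the whole rule. The rule used all 10 arrays, so the values over arrays are given as a description, and no test of these transcripts stands on its own.

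Mussels came from a natural population at Riba-Roja on the Ebro River in Spain, and half-body RNA labelled with the dye Cy3 was hybridised to 1-colour Agilent arrays. February arrays (pre-spawning) numbered 1 female and 1 male, June arrays (spawning) 2 females and 2 males, and September arrays (gonad resorption) 2 females and 2 males. The series text calls replicates biological. No treatment or genotype is named in the labels, and neither the number of animals per array nor their age was known here. The small number of arrays limits the precision.

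Zebra mussels release eggs and sperm into the water in the warm season and rebuild the gonad afterwards, so the makeup of the body changes over the year. Transcripts that keep a constant level through such a cycle are used as references against which other transcripts are measured. In animal cells in general, the most abundant transcripts often encode ribosomal proteins, translation factors, cytoskeletal proteins and parts of the respiratory chain. The deposited files do not pair the 168 accessions with gene names. In RefSeq's gene list for assembly UMN_Dpol_1.0, 0 of the 3541 accessions or names on the array were found. The 168 are therefore called by accession. The planned marker and housekeeping lists could not be applied for the same reason. In whole tissue, fewer cells of a type and less RNA per cell cannot be told apart.

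Some arrays stood apart. September female replicate 2 was dim: its processed signals averaged 766.3, against 8138 to 10999 on the other 9 arrays, and 22.4% of its probes were above background, against 28.9% to 36%. September female replicate 2 and September male replicate 2 lay on slides of their own with another scan date, and the other 8 arrays shared slide 1. For the 2 February arrays the sex in the title is opposite to that in the description, and the title was used. No spot was saturated, and the brightest steady transcript reached 42.5% of the scanner's saturation value.

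The rule divided the bright accessions nearly evenly. The 168 steady transcripts made up 50.9% of the 330 bright accessions. Among the 833 accessions detected on all arrays with a mean below 0, 130 (15.6%) had a range under 1, and the median range there was 1.92. The range of a steady transcript over the 10 arrays had a median of 0.672, with quartiles of 0.515 and 0.842. In linear terms the brightest array exceeded the dimmest by 1.13-fold to 2.00-fold, with a median of 1.59-fold. A range under 0.5 was found for 39 of them and under 0.25 for 2.

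**Figure D1:**
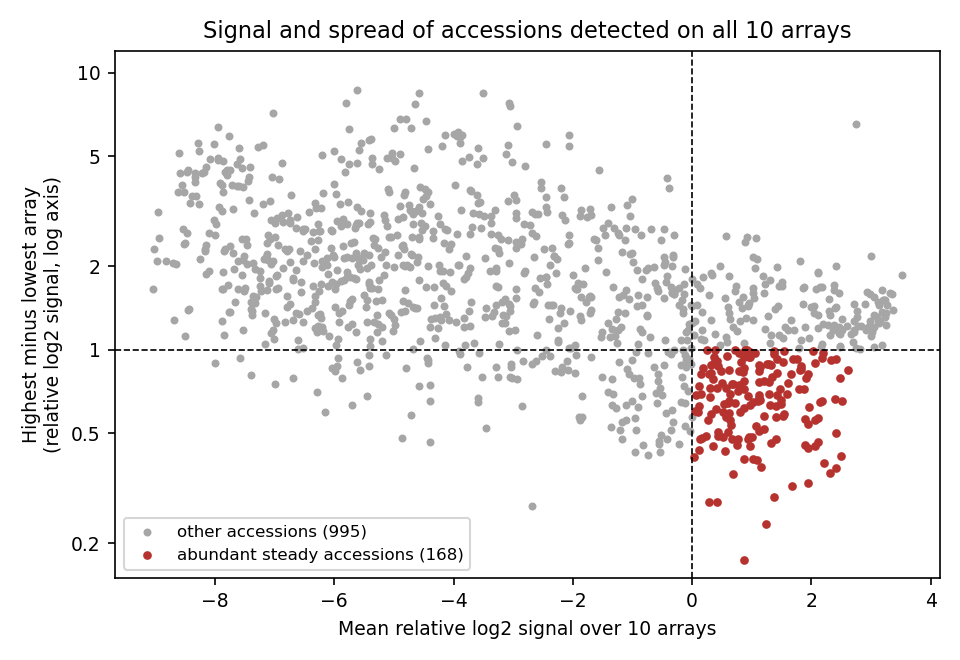
Mean relative log2 signal over 10 arrays (x axis) against the highest minus the lowest array (y axis, log scale) for the 1163 accessions detected on all arrays, with the brightest probe of each. Red points are the 168 steady transcripts, which fill the corner right of 0 and below 1 (dashed lines).

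The steadiest transcript was EY436342. Its relative log2 signal was 0.96 and 0.88 in the February female and male, 0.84, 0.79, 0.85 and 0.96 in June (female replicates 1 and 2, then male replicates 1 and 2), and 0.87, 0.87, 0.87 and 0.79 in September in the same order. The June arrays overlapped those of both other seasons, while the 2 February values lay just above all 4 September values. The mean was 0.86 ± 0.07 (SD, n = 4) in June and 0.85 ± 0.04 (SD, n = 4) in September. Its processed signal, before any scaling between arrays, lay between 68642 and 99520 on 9 arrays and was 5303 on September female replicate 2. On that dim array its unscaled signal was low, and its scaled value fell in the middle of the others.

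EY436582 had the next smallest range, 0.236. It stood at 1.26 and 1.17 in February, 1.21, 1.17, 1.15 and 1.30 in June, and 1.32, 1.253, 1.36 and 1.13 in September. The September arrays held both its highest value (male replicate 1) and its lowest (male replicate 2). EY433671 stood at 0.44 and 0.34 in February, at 0.19 to 0.36 in June and at 0.16 to 0.42 in September, a range of 0.281.

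The other transcripts among the 8 of smallest range spanned a wider stretch of brightness. EY435489 varied from 0.30 to 0.58 around a median of 0.39, with the lowest value in the February male and the highest in June male replicate 2. EY434366 varied from 1.196 to 1.49 around a median of 1.38. EY433900 varied from 1.52 to 1.84, with its lowest value in the February male. EY436158 varied from 1.76 to 2.09, and EY435211 from 0.49 in September male replicate 2 to 0.85 in the February female. The June and September arrays overlapped for each of the 8. The overlap of EY435211 rested on the upper end of its September arrays (0.49 to 0.70) and the lower end of its June arrays (0.64 to 0.83).

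The 8 brightest steady probes had means of 2.40 to 2.62. A probe's brightness depends on its sequence as well as on the transcript, so the order of these means is not an order of abundance. EY436576, the brightest, stood at 2.80 and 2.33 in February, 2.94, 2.82, 2.77 and 2.55 in June, and 2.46, 2.84, 2.60 and 2.09 in September. Its June mean was 2.77 ± 0.16 (SD, n = 4) and its September mean 2.50 ± 0.31 (SD, n = 4), with overlapping arrays.

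EY436868 and EY434467 were the flattest of the 8. The former varied from 2.32 to 2.73 around a median of 2.49, and the latter from 2.21 to 2.58 around 2.41. For EY434467 the 2 February arrays, at 2.51 and 2.58, were at or near the top of its range, while EY436868 had its highest value in September male replicate 1.

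Some of the brightest, EY434454, EY436003, EY436010 and AJ517605, had their highest value on the dim array, September female replicate 2. These values were 2.97, 3.02, 2.92 and 2.80, against 2.69, 2.68, 2.80 and 2.66 on the next highest array. AJ517605 was the only one of the 8 whose June and September arrays did not overlap, with 2.21 ± 0.07 (SD, n = 4) in June and 2.54 ± 0.20 (SD, n = 4) in September, but its February male, at 2.66, lay above 3 of the 4 September arrays. EY433988 varied from 2.10 in June female replicate 2 to 2.60 in June male replicate 2.

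**Figure D2:**
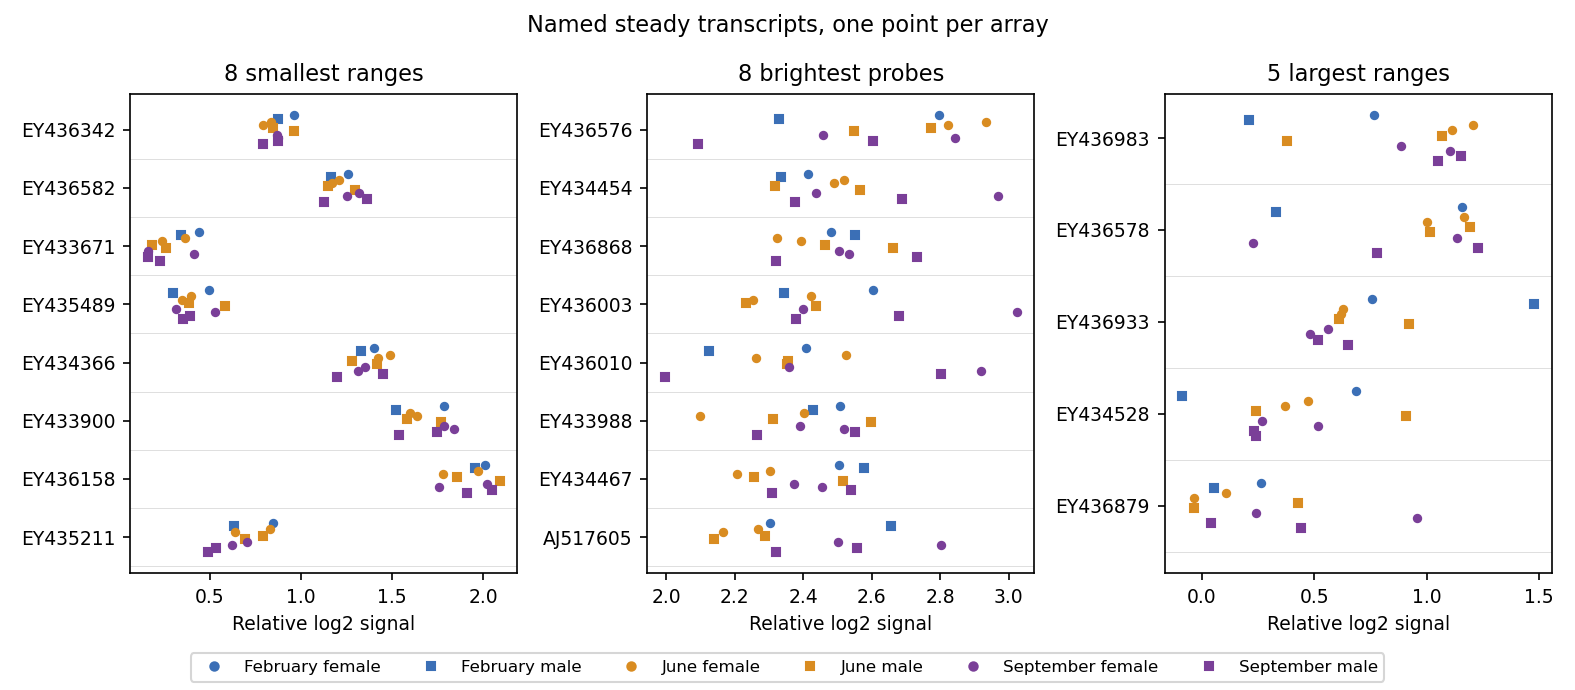
Relative log2 signal of named steady transcripts, 1 point per array, coloured by season and shaped by sex, with a separate x scale in each panel. The 8 transcripts of smallest range form tight clusters, the 8 brightest lie between 2.00 and 3.02, and the 5 of largest range spread over nearly 1 unit.

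At the edge of the rule, 1 or 2 arrays lay apart from the rest or the arrays were stretched at both ends. EY436983 had a range of 0.9998, with 0.21 in the February male and 0.38 in June male replicate 2 against 0.76 to 1.21 on the other 8 arrays. EY436578 stood at 0.78 to 1.23 on 8 arrays, at 0.33 in the February male and at 0.23 in September female replicate 2. EY436933 was at 1.48 in the February male and at 0.48 to 0.92 elsewhere.

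EY434528 was lowest in the February male (-0.09) and highest in June male replicate 2 (0.91). EY436879 was highest in September female replicate 2, at 0.96, against -0.04 to 0.44 elsewhere. Just outside the rule lay EY435158, EY436856, EY433862, EY436681 and EY436340, with ranges of 1.002 to 1.02. Of these 5, all but EY435158 had their highest value on the dim array, September female replicate 2. Just under the mean threshold were EY437015, with a mean of -0.01 and a range of 0.573, and EY434584, with -0.02 and 0.886.

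Small seasonal differences remained inside the permitted range. September minus June had a median of -0.02 over the 168 transcripts, with quartiles of -0.12 and 0.11 and extremes of -0.54 and 0.60. It was positive in 77 and negative in 91. June minus February ran from -0.50 to 0.53 (median -0.07) and September minus February from -0.60 to 0.64 (median -0.08). Only 6 transcripts differed by more than 0.5 between September and June, 3 between June and February, and 12 between September and February. February held the highest of the 3 season means for 85 transcripts, September for 46 and June for 37. The February mean rests on 2 arrays and each of the others on 4. Over all tested probes the median was 0.10 for June minus February and 0.21 for September minus February.

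EY436899 had the largest excess of September over June. It stood at 0.21 and 0.11 in February, at 0.16, 0.17, 0.23 and -0.06 in June, and at 0.80, 0.70, 0.56 and 0.84 in September. All September arrays were above all June and February arrays. The difference from June was 0.60 (SE 0.187, adjusted p = 0.0947 in the limma fit over all tested probes).

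EY434851 stood at 1.44 and 1.49 in February, 1.57, 1.68, 1.56 and 1.42 in June, and 2.06, 2.34, 2.19 and 1.85 in September. Its September arrays were likewise all above the other 6, by 0.55 against June (SE 0.194, limma adjusted p = 0.124).

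EY434027 lay lower in September, at 0.35, 0.07, -0.11 and -0.16, than in June, at 0.47, 0.43, 0.62 and 0.78, with 0.71 and 0.50 in February. The September minus June difference was -0.54 (SE 0.18, limma adjusted p = 0.111), and no September array reached a June array. EY436687 stood at 0.66, 0.56, 0.40 and 0.91 in June and at 0.35, -0.01, 0.22 and 0.05 in September, a difference of -0.48 (SE 0.215, limma adjusted p = 0.211). Its June and September arrays did not overlap either, while its February values, 0.53 and 0.47, lay within its June span.

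In all, 12 steady transcripts (7.14%) had every September array above every June array and 8 (4.76%) had every one below. Over the 5139 tested probes those shares were 13.6% and 11.4%. Since the rule limits the distance between the seasons, nothing is read from the lower shares. The differences among the 12 ran from 0.33 to 0.60 and among the 8 from -0.54 to -0.21.

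In the limma fit with 1 mean per season and sex, 0 of the 168 were called for September against June at an adjusted p under 0.05, where 13.9% of tested probes were called. The counts were also 0 for September against February (7.36% of all called), June against February (1.05%), any season difference by the F-test (10.9%) and females against males (0.0%). At an unadjusted p under 0.05 the counts over the 168 were 8, 3, 0, 3 and 0 in that order. The rule selected transcripts with small differences, so these counts follow from it. Standard errors for September minus June ran from 0.168 to 0.311 with a median of 0.198. The background shares varied with the fit: over 18 alternative fits the calls among all tested probes ran from 86 to 935 for September against June (713 as given), and from 0 to 558 for September against February (378 as given). They ran from 0 to 36 for June against February (54 as given) and from 14 to 710 for any season (559 as given). September against February had 0 calls with replicate number, slide or scan date as a block and without the filter on dim probes. It also had 0 without either February array, either June male array or September male replicate 2.

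Females and males differed little over June and September in the steady transcripts, and the rule limits this difference. Female minus male had a median of 0.03 over the 168 transcripts, with extremes of -0.30 and 0.28, and it was positive in 110. Over the 162 bright accessions outside the rule, 81.5% were higher in females, against 65.5% of the steady transcripts and 48.2% of all tested probes. The female side includes the dim array: without September female replicate 2 the median over the steady transcripts was close to 0 (-9.83e-05). Other arrays moved it as well. With 1 array left out it ran from -0.0136 (without September male replicate 2) to 0.0804 (without September male replicate 1). The shares above were not recomputed without the dim array.

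The highest and lowest values of the steady transcripts gathered on a few arrays. September female replicate 2 held the highest value for 52 of them and the lowest for 22. September male replicate 2 held the lowest for 59 and the highest for 2. For 121 of the 168 (72%), at least 1 extreme lay on one of these arrays, the only ones not on slide 1. June male replicate 2 held 36 highest values and June female replicate 2 held 22 lowest.

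The deviations of single transcripts from their own means had an SD of 0.289 on September female replicate 2 and 0.254 on the February male, against 0.137 on September female replicate 1. Both arrays off slide 1 are September arrays, and each is alone on its slide, so slide and array cannot be told apart there. On the 8 arrays of slide 1, the range of the 168 had a median of 0.507. September minus June there ran from -0.49 to 0.66 with a median of 0.0007, and 84 were positive and 84 negative. For 29 transcripts its sign was opposite to that over all arrays.

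**Figure D3:**
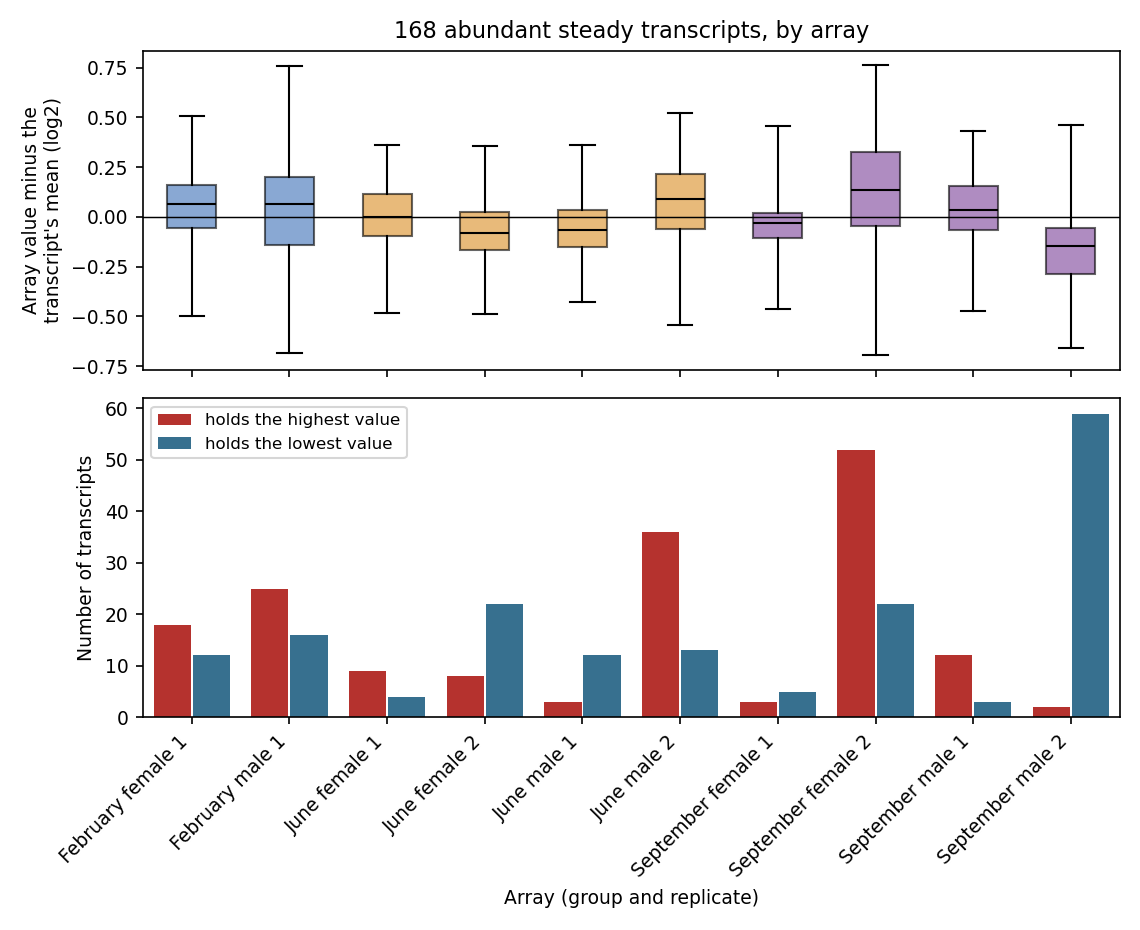
Upper panel: array value minus the transcript's mean over 10 arrays (log2 units) for the 168 steady transcripts, with boxes for quartiles, lines for medians and whiskers to the extremes. Lower panel: number of transcripts whose highest (red) or lowest (blue) value lay on each array, with 52 highest on September female replicate 2 and 59 lowest on September male replicate 2.

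For pairs of arrays, the differences within and between seasons covered much the same range. The median absolute difference over the steady transcripts was 0.116 to 0.246 for the 4 pairs of equal season and sex, 0.113 to 0.328 for the 9 pairs of equal season and other sex, and 0.128 to 0.337 for the 32 pairs of different seasons. Pairs share arrays, and the rule keeps any 2 arrays of a transcript less than 1 apart. The ranges are therefore descriptions, and their likeness follows in part from the rule. The largest value of each kind came from a pair with an array off slide 1. Within June, the 4 arrays of a steady transcript spanned 0.332 at the median, and within September 0.404. The residual SD of the limma fit had a median of 0.183 for the steady transcripts, 0.337 for the 162 bright accessions outside the rule and 0.505 for all tested probes, and the rule favours small values of it.

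Steadiness was less common among the brightest accessions, and this moved with the dim array. Of accessions with a mean of 0 to 0.5, 66% were steady (35 of 53). The share was 67.6% from 0.5 to 1, 66.1% from 1 to 1.5 and 60.5% from 1.5 to 2. From 2 upwards it was 19.8% (21 of 106). None of the 20 brightest accessions met the rule (0), and 47 accessions were brighter than EY436576.

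Among the 106 accessions from 2 upwards, 78 had their highest value on September female replicate 2, which exceeded the mean of the other 9 arrays by a median of 0.78. In the lowest class the excess was 0.16. With the same values over the 9 other arrays, the share with a range under 1 was 77.4% in the brightest class and 71.7% to 78.9% in the others. Of the 162 bright accessions outside the rule, 82 (50.6%) had a range under 1 on those 9 arrays. The part of that array's low signal in these shares was not tested.

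**Figure D4:**
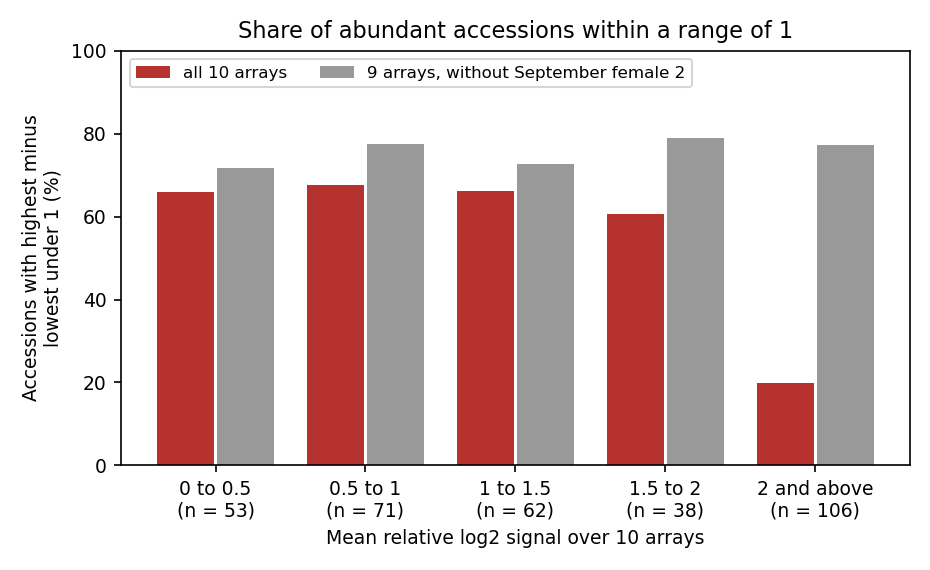
Percent of bright accessions whose highest and lowest arrays were less than 1 apart, by mean relative log2 signal, over all 10 arrays (red) and over 9 arrays without September female replicate 2 (grey). The red bar drops to 19.8% in the brightest class, while the grey bars stay between 71.7% and 78.9%.

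The share of total brightness that the steady transcripts carried was similar on most arrays. Over the brightest probe of every accession, they held 28.7% to 33.9% of the summed processed signal on 9 arrays, and the dim array had 25.1%. The other 162 bright accessions held 53.5% to 58.9% on the 9 arrays and 65.5% on the dim one. These are shares of signal, not of RNA molecules, because probes differ in brightness, and they need no scaling between arrays.

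The ranges of other probes of the same accessions were not used by the rule, but these probes share its arrays and RNA. Their means entered the choice of the brightest probe, and those detected on all arrays entered the scaling percentile. The 168 accessions had 609 probes in all, 1 to 5 each with a median of 4. Besides the chosen ones, 372 probes of 150 accessions were detected on all arrays, 69 probes were not, and 18 accessions had the chosen probe as their only detected one. Of the 372, 233 (62.6%) also had a range under 1. The share was 81.6% for other probes with a mean of at least 0, 60.1% from -2 to 0, 30.6% from -4 to -2 and 19.4% below -4. For the other probes of the 162 bright accessions outside the rule, the share was 16.7% (48 of 287), and 20.4% for those with a mean of at least 0.

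For 60 accessions all other detected probes lay within a range of 1, and for 29 none did. The chosen probe of EY436342 had 2 companions with ranges of 0.507 and 0.415. The 2 others of EY436582 had ranges of 0.216 and 0.535, although 1 of them was dimmer by more than 1 unit, at a mean of -0.40. EY434467 had other probes at means of 1.46, 0.83 and -4.26, with ranges of 0.286, 0.655 and 0.957. All 4 probes of EY434467 thus stayed within 1 unit at very different brightness.

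Of the 372 other probes, limma called 1 between September and June, 1 between September and February and 1 for any season (adjusted p under 0.05). Among all tested probes the shares called were 13.9%, 7.36% and 10.9%. Without September female replicate 1 the counts over the 372 were 15, 8 and 13, and over the 5139 tested probes 935, 558 and 710. The rule chose these accessions for small ranges on the same arrays, so low counts follow from it in part.

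The 3 other probes of EY436899 had differences like that of the chosen one. Their September minus June differences were 0.53, 0.47 and 0.71 against 0.60. Over the 12 transcripts with September above June on every array, 26 of 27 other detected probes had the same sign, and over the 8 with September below, 10 of 15. Probes of an accession share the arrays, so shared signs cannot tell a seasonal difference from one of the arrays themselves.

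**Figure D5:**
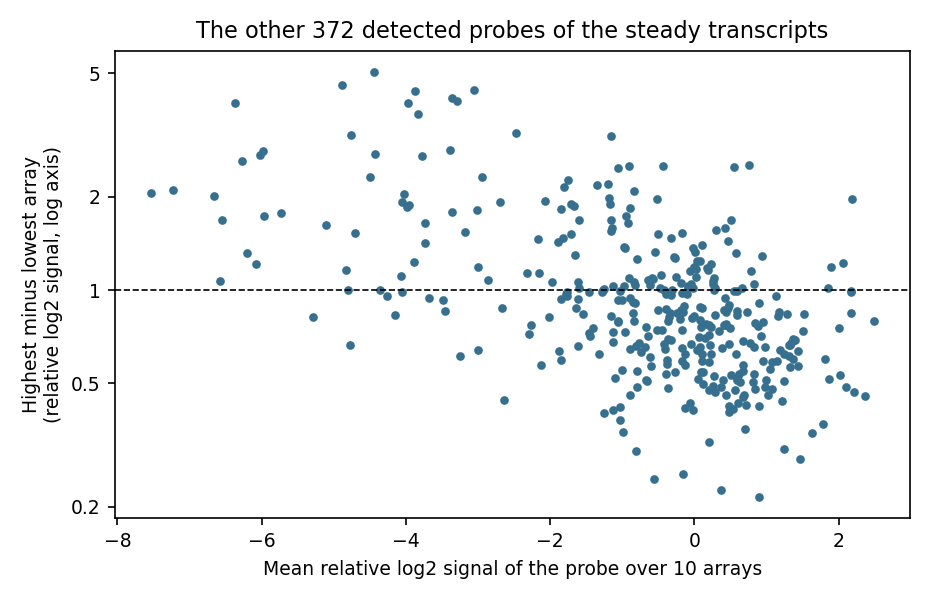
Mean relative log2 signal (x axis) and highest minus lowest array (y axis, log scale) of the 372 other probes of the steady transcripts that were detected on all 10 arrays. Of these, 233 lie under the dashed line at 1, and the wide ranges belong mostly to dim probes.

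Spots printed in duplicate show the measurement error within an array. For 14 of the 168 transcripts the chosen probe had 2 spots, and the SD between them on an array had a median over arrays of 0.0299 to 0.24. The SD of a steady transcript over the 10 arrays was 0.0589 to 0.364 with a median of 0.204. The widest pair of spots was that of EY436576 on September female replicate 2, with an SD of 0.884, and that of EY433689 in the February male reached 0.845.

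The chosen accessions came from all the large sequence collections on the array. Of the 168, 152 had the prefix EY (90.5%, against 80.9% of the array), 8 AM (4.76% against 12.3%) and 8 AJ (4.76% against 3.81%). Among bright accessions the share that was steady was 52.1% for EY, 47.1% for AM and 44.4% for AJ. Several accessions may come from 1 gene, so 168 is not a number of genes.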

How the data were processed

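RNA of 10 half-body samples was read on 1-colour arrays, and groups follow the sample titles. Per the file headers, scans were quantified in Feature Extraction (Agilent, version 10.5.1.1). The processed signal that the authors deposited is a background-corrected intensity from each array alone, without scaling across arrays. A second deposited table holds log2 values (15113 entries, 60 empty cells) of unstated centring and scaling. Its columns correlated with the log2 processed signals at 0.988 or higher and had medians of 2.74 to 3.02, and it served as an alternative.

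Control spots (536 per array) were left out, and log2 processed signals of the 15208 other spots were averaged per probe (13654 probes). A probe counted as detected on an array when all its spots were flagged well above background. The scaling percentile was taken over 2738 probes detected on all arrays. The 168 accessions and all lists were chosen with earlier results of these data known.

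Probes detected on at least 2 arrays (5139) entered a limma 3.58.1 fit (R 4.3.3) with 1 mean per season and sex, 4 residual and 1.65 prior degrees of freedom, and Benjamini-Hochberg adjustment over all of them. The lone February array of each sex was taken to vary like arrays of the other groups. Season contrasts weighted the sexes equally, and females against males used June and September. The script was tested on simulated data. Normexp correction (offset 50) used median signals, since no mean signal column was at hand. Named transcripts are the 8 brightest, the 8 of smallest and 5 of largest range, 2 and 2 at the extremes of September minus June, and the nearest accessions outside each threshold. Python 3.11.15 with matplotlib 3.10.9 drew the plots.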

Additional observations from a re-analysis of the deposited data

How the results depend on the processing

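The number of steady transcripts, 168, depended on the scaling and on 1 array. The 75th percentile over all probes gave 82 (65 shared with the 168), and the mean over an accession's detected probes gave 107 (81 shared). The 8 arrays of slide 1 gave 293, with 166 of the 168 among them, and 9 unscaled arrays, chosen after seeing the data, gave 277. Leaving out 1 array gave 168 to 279, with 279 without September female replicate 2 and at most 192 otherwise. With unchanged values a range over fewer arrays can only shrink, but detection and scaling were redone for each set of arrays. Bright accessions numbered 388 on slide 1 and also without September female replicate 2, against 330 over all arrays. Higher counts there thus follow in part from the construction. Quantile normalization gave 230, the authors' values 196, normexp 157, centring on the median 147, and a percentile without probes of the 168 accessions, chosen after seeing the data, 154. Under all 8 scalings and corrections that kept the 10 arrays and the brightest probe, 55 of the 168 remained. For EY433900 normexp gave a range of 1.80 against 0.322, and the cause was not tested.

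Other probes within a range of 1 numbered 233 of 372. With the members of each setting they numbered 71 of 169 with the percentile over all probes and 457 of 632 on slide 1. Both the number of other probes and the share within 1 changed. The share was lower in the former setting and higher in the latter. With 1 array left out they ran from 235 of 376 to 417 of 608, the latter without September female replicate 2.

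No chosen probe of a steady transcript was called in any comparison under any of 18 alternatives (0 in each, limma, adjusted p under 0.05). These probes were chosen for small ranges on the same arrays, so counts of 0 follow largely from the rule. Robustness to the processing cannot be read from them. With the authors' values only 160 chosen probes were tested. Some fits called 0 of all tested probes as well, such as normexp for June against February (0 of 5139). Other probes of the steady accessions were called for September against June in up to 2 cases, except 15 without September female replicate 1. In that fit 935 of all tested probes were called. With replicate number as a block the count of chosen probes was 0 as well, and calls over all tested probes went from 713 to 515 for September against June, from 378 to 0 for September against February, from 54 to 6 for June against February and from 559 to 347 for any season. For September against June, slide as a block gave 132, scan date 261 and leaving out June female replicate 1 gave 144. Differences between replicates 1 and 2 correlated between groups at -0.327 to 0.342. In September the replicate number coincides with slide and scan date, since both replicate 2 arrays lay off slide 1. What the replicate block takes up was not tested.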

Other observations

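Some steady accessions carried another probe that varied widely. These were chosen after their values were seen, as the widest ranges among the 372 other detected probes, of which 34 (27 accessions) had a range over 2. EY436637 was flat on its chosen probe, at 0.68 to 1.17 on all 10 arrays. Another of its probes, with a mean of -4.45, ranged over 5.05: it stood between -3.26 and -2.54 on 6 arrays and between -7.59 and -5.97 on the other 4 (June female replicates 1 and 2, September female replicate 1 and September male replicate 1). A second probe of EY436637 was low on the same 4 arrays, at -6.15 to -4.86 against -2.89 to -2.46 on the other 6. Both sets of arrays hold June and September arrays.

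The chosen probe of EY433733 lay between 0.98 and 1.61. Another of its probes stood at -2.52 and -3.48 in February, -1.94, -2.16, -2.39 and -1.42 in June, and -3.44, -5.85, -3.42 and -3.93 in September. Its September arrays were all below its June arrays, by 2.18 on average, while its 2 remaining probes had ranges of 0.781 and 0.634. For AJ517605, 1 of 3 other probes ranged over 2.53 at a mean of 0.76, and the 2 others over 0.468 and 0.569.

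Within the steady set, the first principal component of the deviations held 33.8% of their variance. Its weights were 0.16 to 0.64 on the 4 September arrays and -0.45 to -0.03 on the 6 February and June arrays. The largest were 0.64 on September female replicate 2, -0.45 on the February male and -0.41 on June male replicate 2. Among September arrays the next was 0.29 on September male replicate 2, the other array off slide 1. A transcript's deviations cancel out over the arrays, so some weights of each sign are forced, but not which arrays carry them. The split of the weights by season was not tested.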
